A study of Mus musculus with 12 samples.

Results

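The cytosolic ribosomal protein genes encode the proteins of the 60S and 40S ribosomal subunits, which make almost all of a cell's proteins. They were taken by name, as gene symbols of the form Rpl or Rps with a number, together with Rplp0, Rplp1, Rplp2 and Rpsa. Symbols that mark pseudogenes and the S6 kinases were left out, and a gene had to average at least 1 CPM (its count scaled to a common library total) over the 12 libraries. Of 33250 gene rows, 89 matched the names and 82 reached that level, 48 of the large subunit (Rpl) and 34 of the small subunit (Rps and Rpsa). The lowest gene inside the limit was Rps27l at 5.91 CPM, and the highest outside it was Rpl3l at 0.300 CPM, so none stood near the limit. The other 6 rows left out were Rpl10l, Rpl6l, Rpl32l, Rpl39l, Rps3a2 and Rps3a3. The annotation gave 80 of the 82 genes as protein coding and 2, Rps4l and Rps12l1, as pseudogenes in spite of their symbols.

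A ribosome holds 1 copy of nearly every ribosomal protein beside its ribosomal RNAs, the P stalk proteins Rplp1 and Rplp2 being the known exception. Their mRNAs are made at high levels in most cells, and protein made in surplus is degraded. Their mRNAs begin with a cytosine followed by a run of pyrimidines, the 5′ terminal oligopyrimidine (TOP) motif. Through it the protein Larp1 and the kinase mTORC1 set how much of each mRNA is translated. In neurons these mRNAs are abundant in the soma and are also found in dendrites and axons.

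RNA came from bulk hippocampus of 12 male mice. The 6 WT animals were labelled wild type. The 6 cKO animals were labelled as an Emx1-Cre conditional knockout of the microRNA cluster between Mir379 and Mir410, genes on chromosome 12 that neurons express. Emx1 drives Cre in the lineage of forebrain excitatory neurons and glia, so cells of other lineages in the tissue keep the cluster. The labels give no age, treatment, litter or number of clones, and each library stands for 1 animal, so p-values measure the spread between these animals. In bulk tissue, fewer cells of a type and less RNA per cell cannot be told apart.

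Library totals ran from 42360558 to 51095758 estimated counts, and no pair of libraries of the same genotype matched within sampling noise; pairs across genotypes were not compared. All 9 markers of hippocampal neurons were detected, with a sum of 2425 to 2847 CPM. The transcript B830012L14Rik, on chromosome 12, read 0.310 to 0.865 CPM in WT and 17.4 to 25.8 CPM in the 5 libraries labelled cKO 2 to 6. The library labelled cKO 1 read 0.788 CPM, inside the WT range. Emx1 itself read 8.38 to 9.60 CPM in WT, 5.91 to 6.84 in cKO 2 to 6 and 9.14 in the library labelled cKO 1, again inside the WT range. Both transcripts thus go against the label of cKO 1. The counts of genes called and of genes above 0 are also given without that library, and most other values include it. Choroid plexus signal varied widely without following genotype, from 56.6 to 8305 CPM over 8 markers. The 6 smooth muscle markers summed to 48.0 to 83.4 CPM in WT and 86.8 to 135 CPM in cKO, with a smallest adjusted p of 0.115. The part of either in the values below was not tested.

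Some of the annotated start sites show the feature for which these mRNAs are known, and others do not. Each line gives 40 bases of the RefSeq promoter table (GRCm38.p6), from 20 before the annotated start to 20 from it on, in the direction of transcription. Capitals mark the run searched for, a C followed by at least 4 of C or T, with its first C within 5 bases of the start; the first 6 hold one and the last 3 hold none there. They are genes described below, shown as examples and not in proportion to the set. In the first 6 the start base itself is a C of the run, which is less common in the set, as counted below.
Rps6 (chr4:86857348-86857387, minus strand): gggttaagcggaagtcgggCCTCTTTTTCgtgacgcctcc
Rpl15 (chr14:18270967-18271006, minus strand): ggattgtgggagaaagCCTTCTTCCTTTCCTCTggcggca
Rps27 (chr3:90213629-90213668, minus strand): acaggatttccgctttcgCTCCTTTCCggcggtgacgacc
Rplp2 (chr7:141447631-141447670, plus strand): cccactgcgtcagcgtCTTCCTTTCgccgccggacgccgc
Rpl28 (chr7:4792945-4792984, plus strand): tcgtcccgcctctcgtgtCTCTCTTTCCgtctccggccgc
Rps15a (chr7:118116128-118116167, minus strand): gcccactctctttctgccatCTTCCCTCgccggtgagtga
Rpl4 (chr9:64173367-64173406, plus strand): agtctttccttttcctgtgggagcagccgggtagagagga
Rpl5 (chr5:107900508-107900547, plus strand): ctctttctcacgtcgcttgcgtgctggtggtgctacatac
Rps12 (chr10:23787190-23787229, minus strand): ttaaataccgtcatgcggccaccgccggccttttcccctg

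Of the 82 genes, 60 were found in that table. A run lay within 5 bases of an annotated start in 29 of them (48.3%), against 23.7% of 11301 other genes of at least 1 CPM. The base at an annotated start was itself a C followed by at least 4 pyrimidines in 13 (21.7%), against 2.86% of the others. In most of these 13 the run began before the start and spanned it, as the lines of Rps6 and Rpl15 show. A gene with several annotated starts was counted when any of them held the run, and the search read the strand of the gene only. The letters TATAAA lay between 40 and 16 bases before the start in 1 of the 60 genes and in 1.39% of the others. A window without the run says only that these letters are not next to that annotated start.

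The genes lay on 18 autosomes and the X chromosome, with 15 on chromosome 7 and 4 on the X. Their transcripts were short, with a median length of 705 bases against 2785 over 15495 genes of at least 1 CPM, and 64 of the 82 were at most 1000 bases long. Small nucleolar RNA genes lay inside 30 of them on the same strand, 58 in all. These RNAs guide modification of ribosomal RNA and are released from introns. Rpl4, for one, held 5, and Rpl13a held 4.

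Matches to the seeds (bases 2 to 8) of 71 mature miRNAs of the deleted cluster, from 38 hairpins and with 64 different sites, were rare in these genes in number but not per base. At least 1 match lay in the 3′ UTR of 28 of 79 genes (35.4%), against 83.9% of 13451 others. The median 3′ UTR was 57 bases long, against 935 in the others. Per kilobase of 3′ UTR the genes held 4.30 matches and the others 4.18. Rpl5 and Rps20 held the most, 8 each, in 3′ UTRs of 1009 and 3167 bases. A match is a stretch of letters and not a measured site.

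Per kilobase of transcript, most of the 82 genes were among the most abundant of the tissue. Together the 82 genes took 0.864% to 1.04% of all counts of a library. Over the 12 libraries their mean level ran from 5.91 CPM (Rps27l) to 363 CPM (Rpl3, at the peptidyl transferase centre), with a median of 101 CPM. Per kilobase of transcript the median was 148 CPM, against 7.90 over all genes of at least 1 CPM, and 73 of the 82 were in the top 10%. The highest per kilobase were Rplp1 of the P stalk (491 CPM per kilobase), Rpl41 (466), the smallest ribosomal protein, and Rps15 (375) of the small subunit. The lowest were Rps27l (11.8), Rps20 (18.7) and the annotated pseudogene Rps4l (21.6). The length used for Rps20 was 3706 bases, most of it 3′ UTR, so a shorter transcript in this tissue would place it higher.

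No ribosomal protein gene differed between genotypes by the test. All 82 were tested by edgeR and 0 passed an adjusted p of 0.05, where 2 of 19325 genes did (0.0103%). DESeq2 also called 0 of them, where 87 of 33231 genes passed. With limma-voom 0 of all 19325 genes passed, so its 0 is not particular to this set. At an unadjusted p under 0.05 edgeR gave 1 of the 82, against 9.54% of all genes tested. In none of the 82 did all cKO animals lie above all WT animals, which held for 35 of 19325 genes (0.181%). In none did all lie below, a direction whose share over all genes is not given here. Without the library labelled cKO 1, edgeR called 0 of the 82, where 6 of 19457 genes passed. In that fit 1 of the 82 had an unadjusted p under 0.05.

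The differences were small and mostly had 1 sign. The fitted log2 fold change was above 0 in 77 of 82 genes (46 of 48 of the large subunit and 31 of 34 of the small), where 53.4% of all genes tested were above 0. The median was 0.036 on the log2 scale, 1.03-fold, against 0.0072 over all genes and 0.00064 over the 6427 genes of at least 30 CPM. That last bound was chosen after the values were seen. The subunits were alike, with medians of 0.037 (large) and 0.034 (small), and 80 of 82 differences lay within 0.1 of 0. The median standard error (SE) of a gene was 0.049, larger than the median difference.

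The count of genes above 0 rested on a few animals. Without the library labelled cKO 1 it was 65 of 82, with a median of 0.020. Without cKO 6 it was 52, without WT 5 it was 59, and their medians were 0.011 and 0.014. The genes rise and fall together between animals, as shown further below, so the 77 signs are not 77 separate observations.

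**Figure D1:**
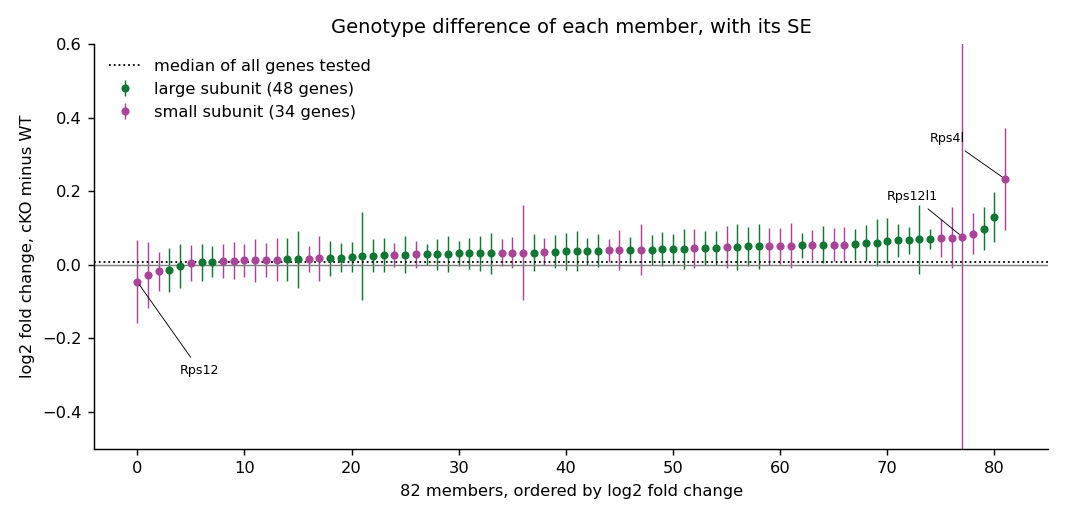
Log2 fold change (cKO minus WT, edgeR) of each of the 82 genes, ordered by size, with bars of 1 SE; green marks the large subunit, purple the small, and the dotted line the median of all genes tested. The differences lie close to 0, 77 of them above it; the bar of Rps12l1 (SE 1.14) runs past both ends of the axis.

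The ribosomal protein share of counts overlapped between genotypes. In WT the 6 animals took 0.934% ± 0.055 (SD, n = 6) and in cKO 0.964% ± 0.045 (SD, n = 6). The lowest share was in WT 5 (0.864%) and the highest in cKO 6 (1.04%), followed by WT 1 (1.03%). The spread between animals of 1 genotype was thus wider than the difference of 0.029 percentage points between genotypes. The summed level of large-subunit genes was 1.59 ± 0.015 times that of small-subunit genes in WT and 1.60 ± 0.0070 in cKO (SD, n = 6).

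Transcript length moved with the direction. Over other protein-coding genes of at least 10 CPM, 79.8% of the 516 genes with transcripts of at most 1000 bases were above 0, with a median log2 fold change of 0.032. The share was 70.3% from there to 2000 bases, 59.2% to 4000 bases and 37.4% beyond, where the median was -0.021. Among the ribosomal protein genes of at most 1000 bases, 59 of 64 (92.2%) were above 0 with a median of 0.036, and all 18 longer ones were, with a median of 0.039. These lengths were compared after the values were seen, and the part of length in the ribosomal values was not tested.

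**Figure D2:**
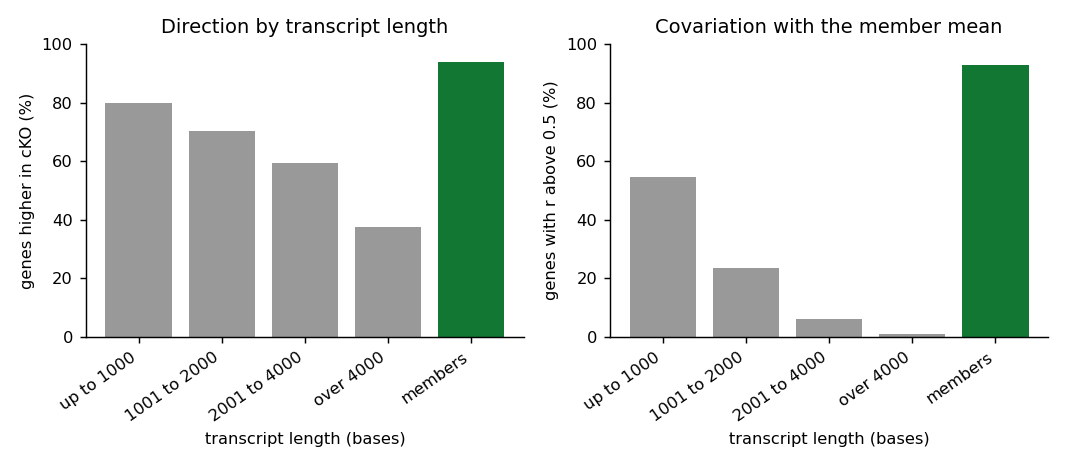
Left, percent of genes with a log2 fold change above 0; right, percent of genes whose deviations between animals correlate above 0.5 with the ribosomal protein mean. Grey bars are other protein-coding genes of at least 10 CPM by transcript length in bases and the green bar is the 82 genes; the grey bars fall from 79.8% to 37.4% on the left and from 54.7% to 0.913% on the right.

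The P stalk, which recruits elongation factors, showed no gene past the test. Rplp0, which anchors it, read 132, 142 and 158 CPM (lowest, median and highest) in WT and 137, 147 and 159 in cKO, a log2 fold change of 0.046 ± 0.046 (SE, adjusted p = 0.81). Rplp1 read 221, 235 and 261 CPM in WT and 227, 247 and 274 in cKO, a log2 fold change of 0.050 ± 0.053 (adjusted p = 0.82). Both ranges overlapped over most of their width. Rplp2 read 71.3, 79.6 and 83.0 CPM in WT and 75.4, 79.5 and 89.4 in cKO, a log2 fold change of 0.024 ± 0.045 (adjusted p = 0.91). Rpl12, at the base of the stalk, read 30.6, 33.4 and 36.5 CPM in WT and 33.8, 35.3 and 43.9 in cKO. Its log2 fold change of 0.13 ± 0.067 was the second highest of the set (adjusted p = 0.58), and a copy described below held more counts than Rpl12.

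Among the genes around the catalytic centre and the peptide exit tunnel of the large subunit, none passed the test. Rpl3 read 330, 371 and 377 CPM in WT and 348, 365 and 380 in cKO (log2 fold change 0.021 ± 0.040, adjusted p = 0.91). Rpl4, which lines the tunnel, had the smallest spread between animals of all 82 genes, an SD of 0.041 on the log2 scale within genotypes. It read 315, 335 and 352 CPM in WT and 334, 341 and 343 in cKO (0.029 ± 0.029, adjusted p = 0.81). Rpl17, also in the tunnel wall, read 152, 158 and 178 CPM in WT and 153, 168 and 174 in cKO (0.055 ± 0.042, adjusted p = 0.73). Rpl39, at the tunnel's exit, read 27.3, 33.0 and 35.9 CPM in WT and 30.7, 33.7 and 38.1 in cKO (0.060 ± 0.063, adjusted p = 0.82). Rpl10, which joins late in subunit maturation, read 148, 168 and 184 CPM in WT and 164, 171 and 186 in cKO (0.042 ± 0.046, adjusted p = 0.83). In all 5 the highest WT animal lay above the cKO median.

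Rpl5 and Rpl11 form the 5S particle with 5S ribosomal RNA, and when free of ribosomes they bind Mdm2 and so stabilise p53. Rpl5 read 80.5, 87.4 and 92.6 CPM in WT and 85.7, 89.0 and 90.3 in cKO (log2 fold change 0.040 ± 0.035, adjusted p = 0.78). Rpl11 read 92.2, 104 and 110 CPM in WT and 99.1, 104 and 122 in cKO (0.043 ± 0.055, adjusted p = 0.86). The cKO animals thus lay within the WT range apart from the highest for Rpl11. Of 11 tested genes of a list of nucleolar stress and p53 response, 8 were above 0 and 3 below, 0 passed, and the median log2 fold change was 0.044. The smallest adjusted p of that list was 0.35, for Mdm4, an inhibitor of p53, at 115 ± 6.23 CPM in WT and 105 ± 4.81 in cKO (SD, n = 6).

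In the small subunit, Rps6, the substrate of the S6 kinases, read 112, 123 and 145 CPM in WT and 118, 125 and 134 in cKO (log2 fold change 0.014 ± 0.059, adjusted p = 0.96). Rps3, at the mRNA entry channel, read 157, 166 and 184 CPM in WT and 162, 172 and 179 in cKO (0.033 ± 0.037, adjusted p = 0.84). Rps27a, made as a fusion with ubiquitin, read 93.8, 104 and 111 CPM in WT and 96.6, 105 and 110 in cKO (0.013 ± 0.046, adjusted p = 0.95). For these 3 genes the cKO range lay inside the WT range. Rpsa, once described as a laminin receptor, read 268, 275 and 304 CPM in WT and 283, 284 and 292 in cKO (0.027 ± 0.033, adjusted p = 0.85). Rps15a was among the steadiest, with a within-genotype SD of 0.050 on the log2 scale, at 108 ± 4.59 CPM in WT and 111 ± 2.60 in cKO (SD, n = 6).

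The gene with the smallest p was Rpl15, a large-subunit protein whose start holds a long pyrimidine run. It read 134, 144 and 146 CPM in WT and 144, 149 and 156 in cKO, a log2 fold change of 0.070 ± 0.028 (unadjusted p = 0.027, adjusted p = 0.46). The lowest cKO animal, at 144 CPM, lay within the WT range, and WT 5 stood below all others. Rpl15 also had 1 of the 3 smallest spreads between animals, an SD of 0.043. Rpl15-ps3, a copy of its coding sequence, read 12.8 CPM in WT 1, and with copies added the log2 fold change of Rpl15 was 0.043 (adjusted p = 0.77). No ribosomal protein gene then had an unadjusted p under 0.05. Next in order of p were Rpl12, Rpl27a (0.067 ± 0.037), Rpl28 (0.099 ± 0.057) and Rps4l (0.23 ± 0.14), with adjusted p from 0.58 to 0.64. With copies added, Rpl12 had 0.023, Rpl27a 0.045 and Rpl28 0.047. The 5 genes below 0 included Rps12 (-0.046 ± 0.11), Rps23 (-0.027 ± 0.090), Rpl35 (-0.014 ± 0.060) and Rpl37 (-0.0041 ± 0.060), none of these more than 1 SE from 0. Rps12, Rps23 and Rpl35 were above 0 once their copies were added (0.026, 0.037 and 0.017), and so was Rpl37 (0.032).

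A further 43 genes, not described one by one, were more uniform. All 43 were above 0, with log2 fold changes from 0.0043 to 0.074 and adjusted p from 0.669 to 0.987. Their mean levels ran from 43.1 to 231 CPM and their within-genotype SDs from 0.057 to 0.18 on the log2 scale.

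Some ribosomal proteins have a paralog that can take the same place in the ribosome. Of 7 such pairs listed, 3 had a paralog under 1 CPM (Rpl39l, Rpl3l and Rpl10l), and 4 were compared by an exact two-sided permutation test of the log2 ratio of counts over 924 splits, which can give no p below 0.0022. Rpl22l1 made up 22.1% to 26.2% of the counts of Rpl22l1 and Rpl22 together, with 23.6% ± 0.714 in WT and 23.9% ± 1.77 in cKO (SD, n = 6, exact p = 0.73). Its highest values, 26.2% and 25.9%, were those of cKO 5 and cKO 6. Rps27l made up 7.63% ± 0.956 of its pair with Rps27 in WT and 7.43% ± 0.738 in cKO (SD, n = 6, exact p = 0.71). Rpl7l1, whose product is better known from ribosome assembly, made up 18.7% ± 1.15 of its pair with Rpl7 in WT and 19.0% ± 0.686 in cKO (SD, n = 6, exact p = 0.69). Rps4l, an annotated pseudogene and not a proven paralog, made up 10.5% ± 1.68 of its pair with Rps4x in WT and 11.7% ± 2.32 in cKO (SD, n = 6, exact p = 0.36). All 4 adjusted p-values were 0.73.

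By level, Rpl22 read 61.3, 70.1 and 72.0 CPM in WT and 67.7, 71.0 and 74.0 in cKO, and Rpl22l1 19.4, 21.5 and 22.7 CPM in WT and 20.1, 21.4 and 25.4 in cKO. Rps27 read 64.6, 69.7 and 78.1 CPM in WT and 67.8, 73.4 and 84.6 in cKO, and Rps27l 4.74, 5.72 and 8.09 CPM in WT and 4.77, 6.03 and 7.17 in cKO. In each pair the parent gene was the more abundant in every animal. Rpl7 read 132, 141 and 158 CPM in WT and 133, 146 and 155 in cKO, and Rpl7l1 29.0, 33.1 and 35.1 CPM in WT and 32.8, 34.2 and 35.4 in cKO. Rps4x, on the X chromosome, read 123, 134 and 143 CPM in WT and 130, 138 and 146 in cKO, and Rps4l 12.7, 15.8 and 18.2 CPM in WT and 13.6, 19.5 and 23.0 in cKO. None of these 8 genes passed the test, with adjusted p from 0.64 for Rps4l to 0.96 for Rps27l.

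The genes moved together between animals of the same genotype. Each gene's deviation from its genotype mean was taken on log2 CPM, and Pearson's r was computed for all 3321 pairs over the 12 libraries, which share depth and scaling. The median r was 0.70, with quartiles of 0.51 and 0.82, and 96.3% of pairs were above 0 and 75.9% above 0.5. Over all pairs of 15541 genes of at least 1 CPM the median was -0.0025, with 49.7% above 0 and 9.69% above 0.5. Large-subunit genes with each other gave 0.70, small-subunit genes 0.71 and pairs across subunits 0.70. Within WT alone the median was 0.75 and within cKO alone 0.69, over 6 animals each.

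**Figure D3:**
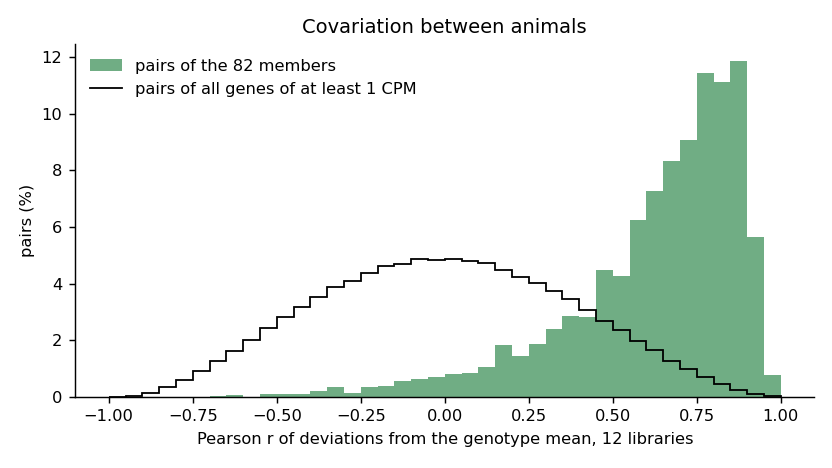
Distribution of Pearson's r between genes over 12 libraries, after subtracting genotype means, as percent of pairs in steps of 0.05. Pairs of the 82 genes (green) center near a median of 0.70 and pairs of all genes of at least 1 CPM (black line) near 0.

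In some animals nearly all of the genes lay on the same side of their mean. In WT 1, 80 of 82 genes lay above their WT mean, and in cKO 6, 79 lay above their cKO mean. In WT 5 only 1 gene lay above, and in cKO 3 only 7. With single libraries left out the median pairwise r stayed between 0.63 and 0.73. The mean deviation over the genes was 0.13 on the log2 scale in WT 1 and 0.11 in cKO 6, -0.12 in WT 5 and -0.093 in cKO 3. Rps12l1 was left out of this mean, a choice made after its zero counts were seen. The 516 short non-ribosomal genes deviated the same way in these 4 libraries, by 0.11, 0.059, -0.067 and -0.045. Their own median pairwise r was 0.29. The share of mitochondrially encoded counts was 7.97% in WT 1 and 7.27% in cKO 6, against 6.86% in WT 5 and 7.52% in cKO 3. The part of depth, RNA quality or dissection in these deviations was not tested.

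**Figure D4:**
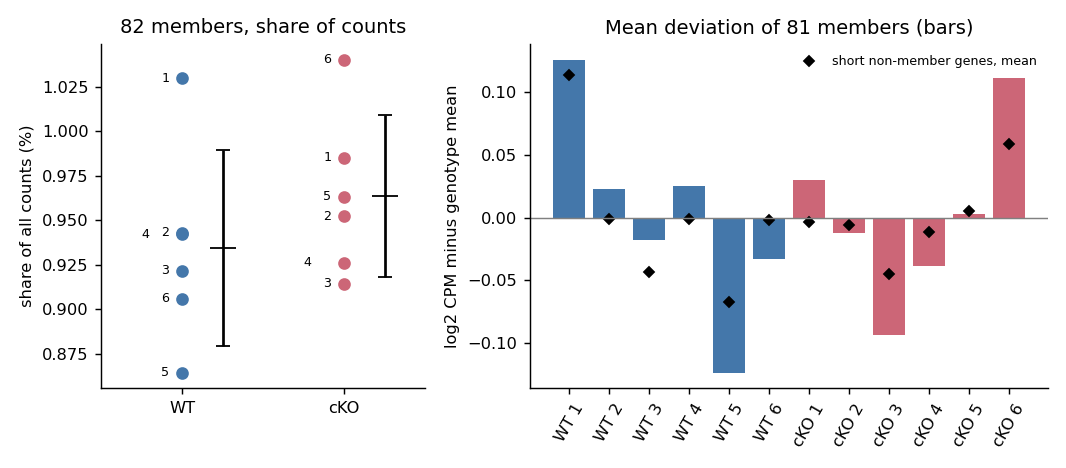
Left, share of all counts taken by the 82 genes in each library (points, numbered by animal) with mean ± SD per genotype; the axis does not start at 0. Right, mean deviation of 81 genes (without Rps12l1) from their genotype mean in log2 CPM (bars) and the same for 516 short non-ribosomal genes (diamonds); WT 1 and cKO 6 are high, WT 5 and cKO 3 low.

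Most single genes followed the mean of the others closely. The r of a gene with the mean of the rest had a median of 0.85 and was above 0.5 in 76 of 82 genes. The highest were Rps10 (0.98) of the small subunit and Rpl10 (0.97) of the large. Rps4l (-0.15), Rps12l1 (-0.047) and Rps23 (0.25) were lowest. The first 2 are the annotated pseudogenes, and Rps23 has copies that hold part of the joint counts.

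Outside the set, the genes most like the ribosomal mean were mostly genes of short transcripts. Over 10256 non-members of at least 10 CPM the 8 highest r included those of Atp5mpl (0.97), Ubald2 (0.96), Mrpl20 (0.95), Ndufa4 (0.95), Atp5g3 (0.95), Cox6c (0.95) and Fau (0.95). Fau encodes a ribosomal protein as a fusion and fell outside the naming rule, Mrpl20 is a mitochondrial ribosomal protein, and Atp5mpl, Ndufa4, Atp5g3 and Cox6c belong to the respiratory chain and ATP synthase. The lowest were Zfp407 (-0.91), Mapt (-0.91), which encodes tau, Kmt2e (-0.90) and Bbs7 (-0.90). With Rps12l1 in the mean, 0 of the 8 highest and 0 of the 4 lowest would have been named. Over all non-members 10.1% had an r above 0.5.

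Lists of related genes differed in how far they followed. All 4 tested genes of the fusion and related ribosomal list (among them Rack1, Fau and Rpl36al) had an r above 0.5, with a median of 0.93. All 30 nuclear respiratory chain genes did too (median 0.86), and they gave a median pairwise r of 0.77 among themselves. Mitochondrial ribosomal protein genes followed less closely, 35 of 78 above 0.5 with a median of 0.43. TOP mRNAs outside the ribosome, such as translation factors, gave 12 of 24 and 0.51. Ribosome biogenesis factors gave 4 of 30 and 0.19, and the mTORC1 and Larp1 pathway 1 of 15 and -0.10. Of 12 ribosome stalling genes 2 were above 0.5, and of 11 nucleolar stress genes 1. None of the cell type lists held a gene above 0.5, though the 5 blood genes had a median r of 0.45. The other cell type lists had medians from -0.10 (oligodendrocytes) to 0.17 (choroid plexus). The difference between lists was not tested, and the respiratory chain genes are short transcripts as well.

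By genotype, 0 genes of these lists passed the test. In the fusion list 3 of 4 were above 0, with Rack1, a scaffold on the small subunit, at 119 ± 5.57 CPM in WT and 125 ± 4.84 in cKO (SD, n = 6, log2 fold change 0.072, adjusted p = 0.56). Rpl36al read 20.9 ± 2.46 and 23.6 ± 5.08 CPM, and Fau 109 ± 7.34 and 111 ± 4.89. TOP mRNAs outside the ribosome were above 0 in 20 of 24 cases, with a median of 0.024. Eif3l, a subunit of initiation factor eIF3, had their smallest adjusted p (0.42), at 51.9 ± 1.41 CPM in WT and 54.6 ± 1.09 in cKO. Respiratory chain genes were above 0 in 25 of 30 (median 0.028) and mitochondrial ribosomal protein genes in 62 of 78 (median 0.027). Ribosome biogenesis factors were above 0 in 16 of 30 (median 0.0044), and the mTORC1 and Larp1 pathway in 8 of 15 (median 0.0076).

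Other rows that share coding sequence with these genes held counts of their own. Ribosomal protein mRNAs have been copied back into the genome many times as processed pseudogenes, and a short read inside a perfect copy cannot be assigned. Whether these counts came from the copies or from their parent genes was not tested. A copy was any other row whose transcript held at least 50% of the 31-base words of a gene's coding sequence. Such a row could overlap the gene's own locus, as Gm45713 does with Rpl13a. It could also be a protein-coding gene, as BC004004 is for Rpl21, with counts that may come from outside the shared stretch. By that measure 63 of the 82 genes had 1 or more, 167 rows in all that together read 643 CPM. In 24 families the copies held at least 1% of the joint counts, and in 3 more than 50%. Of 25 copies of at least 1 CPM aligned to the coding sequence, 14 aligned with no mismatch and no gap, and the lowest identity was 98.2%.

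The 3 families led by a copy were Rpl12 (Gm10275, 67.6% of joint counts), Rps7 (Gm6472, 59.7%) and Rpl5 (Gm15500, 51.8%), and these copies are named after their values were seen. Rps7 and Gm6472 (chrX:152909505-152910155, minus strand) show how few letters separate such a pair. Below are bases 1 to 60 of the Rps7 coding sequence and the same stretch of the copy, with the differing bases in capitals; positions count from 1 at the A of the start codon. They are T26G and G48A, and the only other difference over 582 bases is G123T.
Rps7: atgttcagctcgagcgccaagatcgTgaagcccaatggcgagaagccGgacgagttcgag
Gm6472: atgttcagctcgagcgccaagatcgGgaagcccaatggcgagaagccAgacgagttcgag

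Rps12 and Rps12l1 are both in the set and varied in opposite directions, and the cause was not tested. Rps12 (chr10:23785183-23787275, minus strand) and Rps12l1 (chr7:56014016-56014414, plus strand, a processed pseudogene) are identical over all 396 coding bases. Rps12l1 was listed at 0 in 4 libraries, WT 4, WT 6, cKO 3 and cKO 6, and read 20.4 to 34.6 CPM in the other 8. Rps12 read 110, 109 and 117 CPM in WT 4, WT 6 and cKO 6, and 73.8 to 97.8 CPM in the others. In cKO 3, where Rps12 read 84.4 CPM, other copies read 22.0 CPM. Rps12 and its copies were strongly opposed between animals (r = -0.93 over 12 libraries). Their sum ran only from 102 to 119 CPM, and its within-genotype SD of 0.072 on the log2 scale compared with 0.22 for Rps12 alone.

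**Figure D5:**
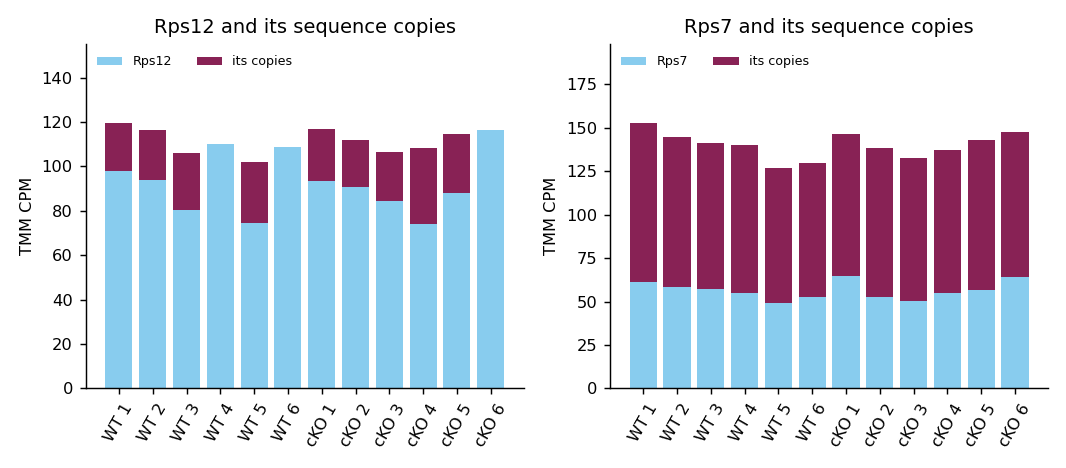
TMM-scaled CPM in each library for Rps12 (left) and Rps7 (right, pale) with the summed level of their sequence copies stacked on top (dark). The copies of Rps12 are at 0 in WT 4, WT 6 and cKO 6, while the sum stays between 102 and 119 CPM; the copies of Rps7 exceed Rps7 in every library.

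The other families were mixed. Gene and copies were opposed (r below 0) in 15 of 24 families, among them Rpl29 (-0.91), Rps23 (-0.90), Rps16 (-0.80), Rpl13 (-0.76) and Rps6 (-0.66), named after their values were seen. In the rest r was above 0, among them Rpl35 (0.53), Rpl10a (0.17) and the 3 families led by a copy, Rpl5 (0.47), Rps7 (0.44) and Rpl12 (0.15). In 21 of 24 families the sum varied less between animals than the gene alone. Rpl10a had the largest spread of any coding member, an SD of 0.25, with 48.3, 68.2 and 71.7 CPM in WT and 45.1, 67.0 and 75.4 in cKO. Its copy Rpl10a-ps1 held 31.5% to 51.5% of the joint counts, and the sum had an SD of 0.17. The rows named as pseudogenes with the highest counts were Rps6-ps4 (43.2 CPM), Rpl10a-ps1 (41.0 CPM) and Rpl28-ps1 (26.3 CPM). The 57 genes whose copies held under 1% had a median pairwise r of 0.77, and adding copies to their genes gave 0.77 over all families. Of those 57, 56 were above 0 between genotypes, with a median log2 fold change of 0.037.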

How the data were processed

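Per the labels' protocols, Trizol and chloroform were used to extract polyA RNA, and a NEB Next Ultra kit gave the libraries. The deposited values are estimated counts per gene symbol, 1 column per animal, made by the authors with Salmon 1.3.0 and the build GRCm38, per the submitters' processing notes. The annotation, the strand setting and the treatment of shared reads were not given in the sources used here. Rounding to whole counts changed 24.8% to 25.9% of the values of a library. All 12 columns were used.

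Genotypes were compared by edgeR 4.0.16 in R 4.3.3 (quasi-likelihood test, TMM scaling, filterByExpr with a count minimum of 10, genotype alone), adjusted by Benjamini-Hochberg over all genes tested at 0.05. DESeq2 1.42.0, limma 3.58.1 (voom), other scalings and filters and leaving out libraries were alternatives. Levels are TMM-scaled CPM, and deviations use log2 CPM with a prior count of 2. Depth, 42360558 to 51095758 counts a library, left a median of 4773 counts per gene and library. Tests were tried on simulated data first.

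Coordinates, gene types and lengths come from GENCODE M21 (GRCm38). Each gene was given its shortest principal transcript, a rule revised after implausible lengths were seen. Promoters and miRNAs come from RefSeq (GRCm38.p6).

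Named genes are those with a fixed role in the ribosome, the 5 with the smallest p in each direction, and the 3 highest or lowest in level per kilobase, spread and r. Outside the set they are the 8 highest and 4 lowest in r and up to 3 of each list by p. The members and lists were chosen with earlier results of these data known. A few single genes are not reported here.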

Additional observations from a re-analysis of the deposited data

Results flagged for a closer look

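Of 168 groups of 6 animals examined (each gene reported, the share of counts and the paralog shares in each genotype), 14 held a library set apart from the others by a gap too wide for Dixon's test at the 95% level. Chance flags about 1 in 20 groups, which is 8 here, and the genes move together, so the flags are not separate events. WT 1 was the highest WT animal for Rpl14 (132 CPM), Rpl23a (151 CPM), Rpl7a (192 CPM), Rps27l (8.09 CPM) and Rps28 (66.3 CPM). WT 5 was the lowest WT animal for Rpl15 (134 CPM), Rpl22 (61.3 CPM) and Rplp2 (71.3 CPM). WT 2 was the highest WT animal for Rpl13, at 131 CPM against 90.7 to 104 CPM in the others, a gene whose copies held part of the joint counts. cKO 6 was the highest cKO animal for Rpl11 (122 CPM), Rpl12 (43.9 CPM) and Rps29 (162 CPM). cKO 3 was the lowest for Rpl32 (67.8 CPM) and cKO 2 the highest for Rpsa (292 CPM).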

How the results depend on the processing

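The 2 genes called over the whole table became 87 with DESeq2, 0 with limma-voom, 1 without a low-count filter, 0 without WT 2, WT 3 and cKO 4, and 0 to 6 when single libraries were left out; the cause was not tested. No ribosomal protein gene was called in any of the 22 alternative fits. Of the ribosomal protein genes, those above 0 numbered 52 of 82 (without cKO 6) to 80 of 82 (without WT 1). With copies added the count was 80 of 81, as Rps12l1 was then summed into Rps12. The median log2 fold change of these genes ran from 0.011 to 0.057, and the difference in share of counts from 0.014 to 0.048 percentage points. The median pairwise r was 0.78 without WT 2, WT 3 and cKO 4, 0.64 as Spearman's rho, 0.77 with copies added, 0.77 in genes with under 1% of counts in copies, and 0.63 to 0.73 with single libraries left out.

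With the animal number as a replicate block, 0 genes were called, 76 of 82 were above 0 and the median pairwise r was 0.76. Same-numbered animals correlated from -0.27 to 0.25 and 1 of 6 numbers had its best partner in its own number, so the numbers were not taken as pairs.

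Of 36 named genes, 23 kept their sign in all 22 fits. The other 13 changed it in at least 1 fit. Leaving out single libraries gave -0.045 to 0.11 for Rpl10a, -0.0092 to 0.057 for Rpl11, -0.0059 to 0.029 for Rpl3, -0.057 to 0.020 for Rpl35, -0.044 to 0.020 for Rpl37, -0.017 to 0.036 for Rplp2, -0.14 to 0.0073 for Rps12, -0.26 to 0.33 for Rps12l1, -0.017 to 0.042 for Rps15, -0.076 to 0.021 for Rps23, -0.014 to 0.028 for Rps27a, -0.033 to 0.14 for Rps27l and -0.019 to 0.054 for Rps6. With copies added, Rpl35 had 0.017, Rpl37 0.032, Rps12 0.026 and Rps23 0.037. Without WT 2, WT 3 and cKO 4, Rpl37 had 0.039 and Rps15 -0.0059. Rpl37 had 0.0056 with library totals alone. Rps12l1 had -0.052 with limma-voom and -0.049 with the block.

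With single libraries left out, the paralog differences in log2 ratio ranged from -0.014 to 0.051 for Rpl22l1 and from -0.079 to 0.027 for Rps27l. For Rpl7l1 the range was -0.015 to 0.050, and exact p over these pairs ran from 0.35 to 0.98. For Rps4l, which kept its sign, the range was 0.086 to 0.26, with exact p from 0.145 to 0.63. Copies and the summed fit, the length comparison, and the mean without Rps12l1 were added after the data were seen. Reads that fit a copy as well limit every gene that has one.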
